A study of Mus musculus with 8 samples.

Results

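Cholesterol synthesis and its control were followed through 8 genes: Hmgcs1, Idi1 and Fdps of the mevalonate steps, Sqle and Lss of the steps from squalene to sterols, and the regulators Srebf2, Srebf1 and Insig1. They were taken by symbol from a table of 25240 gene symbols, and all 8 were among the 14284 genes that passed a filter on low counts. RNA-seq counts came from kidney cells of p16-tdTomato mice that had been given an adenine-rich diet, which causes chronic kidney disease. The genotype and the diet were shared by both groups, 4 Tomato-negative and 4 Tomato-positive libraries, and kidneys without the diet were not analysed here. The 4 identifiers of the titles, CKD523_2, CKD523_3, CKD627_1 and CKD627_2, each joined 1 negative and 1 positive library, and their prefixes (CKD523 and CKD627) have no meaning given in the labels. The sources used here do not give age, sex, how the reporter was built, how cells were sorted or whether the identifiers are separate animals. The p-values therefore reflect the spread among these libraries, which may be technical.

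Cells make cholesterol from acetyl-CoA. HMG-CoA synthase (Hmgcs1) acts early in the mevalonate pathway, isopentenyl-diphosphate isomerase (Idi1) and farnesyl diphosphate synthase (Fdps) build its isoprenoid units, and squalene epoxidase (Sqle) and lanosterol synthase (Lss) form the first sterol. SREBP-2, encoded by Srebf2, switches on these genes when membrane sterol is low, SREBP-1, encoded by Srebf1, acts more on fatty acid genes, and Insig1 holds both precursors in the endoplasmic reticulum when sterol is plentiful. SREBP factors act mostly with NF-Y, which binds CCAAT, and Sp1.

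The promoters of 3 enzymes are shown. The Tomato differences of Hmgcs1 and Idi1 passed a test that pairs libraries by identifier, but not the unpaired test. That of Lss, in the same pathway, passed neither and differed in sign between the prefixes. They are the 250 bases before the RefSeq start of each gene (GRCm38.p6), with a sterol regulatory element (TCACNCCAC) and NF-Y letters (CCAAT, or ATTGG on the other strand) in capitals. Distances are counted from that RefSeq start, which differs from the GENCODE start used for gene positions below. The Idi1 and Lss windows run past their GENCODE starts, and both marked Idi1 matches lie after the GENCODE start of Idi1.
Hmgcs1, chr13:119690101-119690350, plus strand: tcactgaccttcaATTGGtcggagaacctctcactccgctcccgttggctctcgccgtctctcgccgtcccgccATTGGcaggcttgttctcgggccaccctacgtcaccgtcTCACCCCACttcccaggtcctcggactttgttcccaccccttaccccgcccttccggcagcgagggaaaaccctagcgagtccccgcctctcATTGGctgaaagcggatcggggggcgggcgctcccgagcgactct
Idi1, chr13:8885356-8885605, plus strand: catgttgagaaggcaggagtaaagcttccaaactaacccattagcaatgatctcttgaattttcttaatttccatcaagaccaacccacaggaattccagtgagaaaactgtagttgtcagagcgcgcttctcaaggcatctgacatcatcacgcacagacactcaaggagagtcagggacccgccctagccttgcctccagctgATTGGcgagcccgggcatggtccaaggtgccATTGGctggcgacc
Lss, chr10:76531355-76531604, plus strand: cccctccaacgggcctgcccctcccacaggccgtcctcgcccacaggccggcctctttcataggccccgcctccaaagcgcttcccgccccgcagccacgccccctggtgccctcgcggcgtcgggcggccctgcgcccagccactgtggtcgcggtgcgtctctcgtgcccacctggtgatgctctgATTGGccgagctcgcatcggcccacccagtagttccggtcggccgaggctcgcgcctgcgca

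RefSeq promoters were matched by symbol for 6 of the 8 genes, not for Fdps and Sqle, and searched on both strands. Hmgcs1 held the sterol element once, as TCACCCCAC beginning 137 bases before the start, against 1.05% of 32851 promoters of the same length and 1.22% of gene symbols with any such promoter. The element was thus in 1 of 6 members and 1 of 15 synthesis genes with a promoter. Only the letters TCACNCCAC were searched, so other forms of the element would be missed. CCAAT occurred in 6 of the 6 members with a promoter and in 14 of 15 synthesis genes with one, among them both Idi1, at 45 and 14 bases before the start, and Lss, at 62 bases. CCAAT was in 33.8% of all promoters and in at least 1 promoter of 37.5% of symbols, the share that matches a count of genes. GGGCGG, the Sp1 letters, was likewise in 6 of 6 members (32.7% of all promoters, 35.4% of symbols), and the E-box CANNTG, which SREBPs can also bind, was in 5 of 6 (66.2% and 69.3%). In Hmgcs1 the E-box overlapped the ATTGG farthest from the start. These matches describe letters in a window and not bound sites.

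Total counts ranged from 13474439 to 19886202 per library, and a member had between 110 and 6799 counts in any library, so that counting error weighed most on Fdps, with 110 to 375 counts. Levels are given as CPM, counts scaled to a common library total with TMM factors, and differences as Tomato-positive minus Tomato-negative on the log2 scale with a standard error (SE). tdTomato, the reporter, stood at 111 ± 29.4 CPM (SD, n = 4) in negative and 3702 ± 461 CPM (SD, n = 4) in positive libraries, a log2 difference of 5.05 (edgeR adjusted p = 7.1e-05). The labels name the cells as proximal tubular epithelial cells, and markers of that segment summed to between 5548 and 23701 CPM in negative and between 3132 and 9896 CPM in positive libraries. Markers of other segments were present too: loop of Henle markers summed to 4065 to 13979 CPM in negative and 1806 to 6521 CPM in positive libraries, and principal cell markers to 209 to 1766 and 989 to 4291 CPM. In the fit that pairs libraries by identifier, 5 of 12 proximal tubule, 5 of 6 loop of Henle, 3 of 5 distal tubule and 2 of 6 intercalated cell markers were lower in Tomato-positive cells. That fit called 7.62% of all genes, 3.81% as lower. Passed or not, differences lay below 0 for 10 of 12, 6 of 6, 4 of 5 and 4 of 6 of these markers. All 6 intercalated cell markers had an unadjusted p under 0.05 in the paired edgeR fit, so that list was mixed. All 7 principal cell markers and 2 of 6 markers of injured tubule (Sox9, Vcam1) were higher, and the part of these cell types in the results that follow was not tested. Endothelial markers summed to 124 to 540 CPM in negative and 48.0 to 617 CPM in positive libraries, macrophage markers to 39.7 to 53.0 and 33.0 to 43.9 CPM, fibroblast markers to 62.9 to 369 and 90.5 to 274 CPM, and podocyte markers to 126 to 462 and 34.7 to 358 CPM. No listed marker was at 0 throughout a group. Fewer genes were detected in positive (15008 to 15838) than in negative libraries (16054 to 17043).

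Of the 8 genes, Idi1 and Hmgcs1 fell in Tomato-positive cells in the paired fit, to 49.4% and 62.0% of the negative level. Fdps, Sqle and Insig1 were lower in the positive library of all 4 pairs without passing, and Lss, Srebf2 and Srebf1 went down in 2 pairs and up in 2. The unpaired edgeR fit called 0 of 8 members (4 at an unadjusted p under 0.05), where 0.595% of all tested genes were called. The paired fit called 2, both lower, where it called 7.62% of all genes and 3.81% as lower. DESeq2 called 1 member unpaired, Idi1, and limma-voom 0 (3 at an unadjusted p under 0.05), against 7.06% and 0.644% of all genes. In the paired design DESeq2 called 3, adding Sqle, and limma-voom 2, against 14.2% and 9.72%. Lower CPM in the positive library of all 4 pairs was seen in 5 of 8 members and in 17.6% of all tested genes. In bulk RNA, fewer cells of a type and less RNA per cell cannot be told apart.

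**Figure D1:**
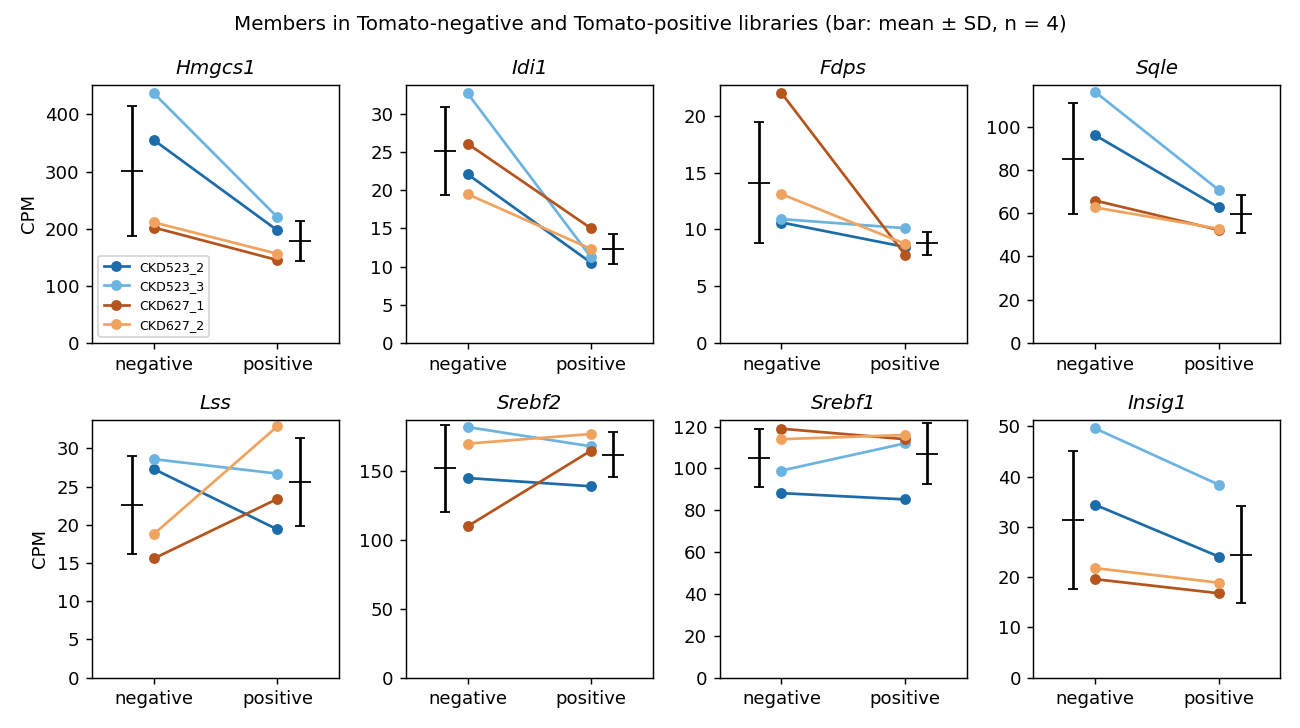
CPM of the 8 genes in each library (y axes, from 0), with lines joining the Tomato-negative and Tomato-positive library of an identifier and black bars giving the mean ± SD of 4 libraries. Hmgcs1, Idi1, Fdps, Sqle and Insig1 are lower on the right in all 4 lines, while Lss rises in both CKD627 lines and falls in both CKD523 lines.

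Hmgcs1 (chromosome 13, 119690379 to 119708260, plus strand, mm10) encodes the cytosolic synthase that condenses acetyl-CoA and acetoacetyl-CoA. Its level was 355, 437, 202 and 211 CPM in the negative libraries, in the order CKD523_2, CKD523_3, CKD627_1, CKD627_2. Their positive partners held 197, 220, 145 and 156 CPM. Each positive library lay below its own partner, yet the positive CKD523_3 library lay above both CKD627 negative ones, so the groups overlapped. The means were 301 ± 114 and 179 ± 35.2 CPM (SD, n = 4 each). The paired difference was -0.69 ± 0.15 (SE; 95% bounds -1.02 and -0.36; edgeR adjusted p = 0.0256), and the unpaired one -0.75 ± 0.27 (adjusted p = 0.204). Hmgcs1 exons share 12.1% of their bases with Gm48342 on the opposite strand, and the sources used here do not say whether counting used the strand. Gm48342 is not among the deposited gene symbols.

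Idi1 (chromosome 13, 8885501 to 8892451, plus strand), the isomerase that makes dimethylallyl diphosphate, had the largest paired difference of the 8. Its CPM in the negative libraries, in the same order of identifiers, was 22.1, 32.7, 26.1 and 19.5. In the positive libraries it was 10.5, 11.2, 15 and 12.3. Every positive library lay below every negative one, which held for 2 of 8 members (Idi1 and Fdps) and for 6.5% of all tested genes. From 25.1 ± 5.76 to 12.3 ± 1.95 CPM (SD, n = 4 each), the paired difference was -1.02 ± 0.20 (SE; 95% bounds -1.48 and -0.55; edgeR adjusted p = 0.022). Unpaired it was -1.03 ± 0.21 (adjusted p = 0.0618). Gm48574 covers 9.22% of Idi1 exon bases on the opposite strand and is not among the deposited gene symbols.

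The paired calls of Hmgcs1 and Idi1 were lost when any of 3 pairs was left out. Without CKD523_2, CKD523_3 or CKD627_2 the edgeR adjusted p of Hmgcs1 was 0.103, 0.135 and 0.071, and that of Idi1 0.0665, 0.117 and 0.0577. Without CKD627_1 both stayed under the threshold. The differences themselves stayed between -0.77 and -0.62 for Hmgcs1 and between -1.14 and -0.87 for Idi1 under the paired alternatives.

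Fdps (chromosome 3, 89093588 to 89101959, minus strand) makes farnesyl diphosphate, the branch point toward sterols, ubiquinone, dolichol and protein prenylation. It was low, at 10.6, 10.9, 22.0 and 13.1 CPM in the negative and 8.45, 10.1, 7.76 and 8.73 CPM in the positive libraries. The groups did not overlap, but most of the gap came from 1 pair, CKD627_1, with 22.0 against 7.76 CPM. Without that pair the paired difference was -0.34. Over all pairs its difference of -0.63 ± 0.27 (SE; 95% bounds -1.25 and -0.01) did not pass (edgeR adjusted p = 0.196). Gm43738, on the same strand, shares 26.7% of Fdps exon bases, so the Fdps count is uncertain. Gm43738 is not among the deposited gene symbols.

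Sqle (chromosome 15, 59315077 to 59331192, plus strand) is the monooxygenase that commits squalene to sterols. Negative libraries stood at 96.0, 116, 65.8 and 62.6 CPM and positive libraries at 62.6, 70.7, 52.2 and 52.8 CPM. The log2 ratio within pairs was -0.617 and -0.716 in CKD523 and -0.336 and -0.244 in CKD627. Sqle came to -0.48 ± 0.14 (SE; 95% bounds -0.80 and -0.16) in the paired edgeR fit, with an adjusted p of 0.0759 that misses the threshold. DESeq2 with the pairing gave an adjusted p of 0.0294, and edgeR without the CKD627_1 pair 0.0435.

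Lss (chromosome 10, 76531588 to 76557138, plus strand) closes squalene epoxide into lanosterol. Negative libraries held 27.3, 28.6, 15.6 and 18.8 CPM, and positive libraries 19.4, 26.7, 23.4 and 32.9 CPM. It was thus lower in both CKD523 pairs and higher in both CKD627 pairs. Over all pairs the difference was 0.20 ± 0.24 (SE; 95% bounds -0.33 and 0.74; edgeR adjusted p = 0.64), which leaves room for a change of either sign. The 4930483K19Rik gene shares 3.53% of Lss exon bases on the opposite strand and had 0 to 15 counts.

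Srebf2 and Srebf1, the genes of the SREBP precursors, did not pass in either fit. Srebf2 (chromosome 15, 82147181 to 82205379, plus strand) stood at 145, 182, 110 and 170 CPM in the negative and 139, 168, 165 and 177 CPM in the positive libraries. The negative CKD627_1 library was the low one, and without that pair the paired difference of 0.12 ± 0.15 (SE; 95% bounds -0.23 and 0.46; edgeR adjusted p = 0.681) became -0.04. Srebf1 (chromosome 11, 60199089 to 60222581, minus strand) stood at 88.2, 99.0, 119 and 114 CPM in the negative and 85.2, 112, 114 and 116 CPM in the positive libraries. Its difference was 0.02 ± 0.13 (SE; 95% bounds -0.26 and 0.31; edgeR adjusted p = 0.928). Rai1, on the opposite strand with 610 to 1834 counts, shares 1.93% of Srebf1 exon bases. These counts do not separate the SREBP-1a and SREBP-1c transcripts, nor do they measure cleavage of the SREBP proteins, the step that sterols control.

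Insig1 (chromosome 5, 28071363 to 28078662, plus strand) is itself an SREBP target. It stood at 34.4, 49.6, 19.6 and 21.8 CPM in the negative and 24.1, 38.4, 16.8 and 18.9 CPM in the positive libraries. Levels followed the prefix more than the Tomato group: all 4 CKD523 libraries lay above all 4 CKD627 ones. The paired difference was -0.33 ± 0.15 (SE; 95% bounds -0.67 and 0.02; edgeR adjusted p = 0.22).

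Per kilobase of exon (GENCODE M21), Hmgcs1 was the most abundant of the 8 at 52.3 ± 22.2 CPM per kb (SD, n = 8 libraries). Srebf2 (21.8 ± 3.35) and Srebf1 (18.8 ± 2.35) followed, with means that lay within the larger SD of each other. These SDs span both Tomato groups and both prefixes, and genes were not compared within libraries, so they do not settle the order of genes. Below Srebf2 and Srebf1 came Sqle (13.0 ± 4.03), Insig1 (9.04 ± 3.77) and Idi1 (5.33 ± 2.26), in which neighbouring means lay within the larger SD of each other. Fdps (2.72 ± 1.09) and Lss (2.23 ± 0.54) were lowest and also within their spread, and their order turned between groups (3.36 and 2.09 in negative, 2.08 and 2.37 in positive libraries). The length of Lss counts a long annotated exon set of 10.8 kb, so that its level per kb depends on that annotation.

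The whole pathway was read from a list of 20 enzymes, 8 of the mevalonate and 12 of the squalene and sterol steps, to which 5 of the 8 members belong. In the paired fit 4 of 20 fell (Idi1, Hmgcs1, Ebp and Cyp51), 0 rose, where 3.81% of all genes fell, and 19 had a difference below 0, with Lss the exception (18 with library size alone as scaling). Without 1 pair, 18 to 20 lay below 0, and in CKD627 alone 15 did. The median was -0.45, against 0.00557 for all tested genes. The unpaired edgeR fit called 0 of 20 (10 at an unadjusted p under 0.05), with a median of -0.51, and DESeq2 called 4 of 20 (Fdft1, Ebp, Idi1 and Cyp51) and 7.06% of all genes. Lower CPM in all 4 positive libraries than in their partners was found for 11 of 20 (17.6% of all genes), and positive libraries all below the negative ones for 4 of 20 (6.5%). Without pair CKD523_3 the paired count was 0 (9 at an unadjusted p under 0.05), without CKD523_2 or CKD627_2 it was 1, and without CKD627_1 it was 4. The summed CPM of the 20 was 1559, 1915, 986 and 977 in the negative and 1071, 1087, 793 and 870 in the positive libraries, lower in the positive library of each pair.

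Ebp and Cyp51 were the sterol genes past the threshold. Ebp, the sterol isomerase, stood at 48.2, 58.7, 61.9 and 43.4 CPM in the negative and 29.7, 30.4, 23.9 and 33.3 CPM in the positive libraries, with no overlap, and fell by 0.85 ± 0.18 (SE; adjusted p = 0.0272, paired edgeR; 0.0603 unpaired). Cyp51, the lanosterol demethylase, went from 94.9, 140, 71.2 and 63.8 CPM to 42.4, 44.8, 39.9 and 60.6 CPM. Its groups did not overlap either, although in the CKD627_2 pair the libraries were nearly level, and it fell by 0.93 ± 0.23 (SE; adjusted p = 0.0462, paired edgeR; 0.106 unpaired). Fdft1 (-0.63, adjusted p = 0.0526) and Pmvk (-0.83, adjusted p = 0.0644) were lower in all 4 pairs and did not pass in the paired edgeR fit, while DESeq2 and limma-voom with the pairing called both lower.

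**Figure D2:**
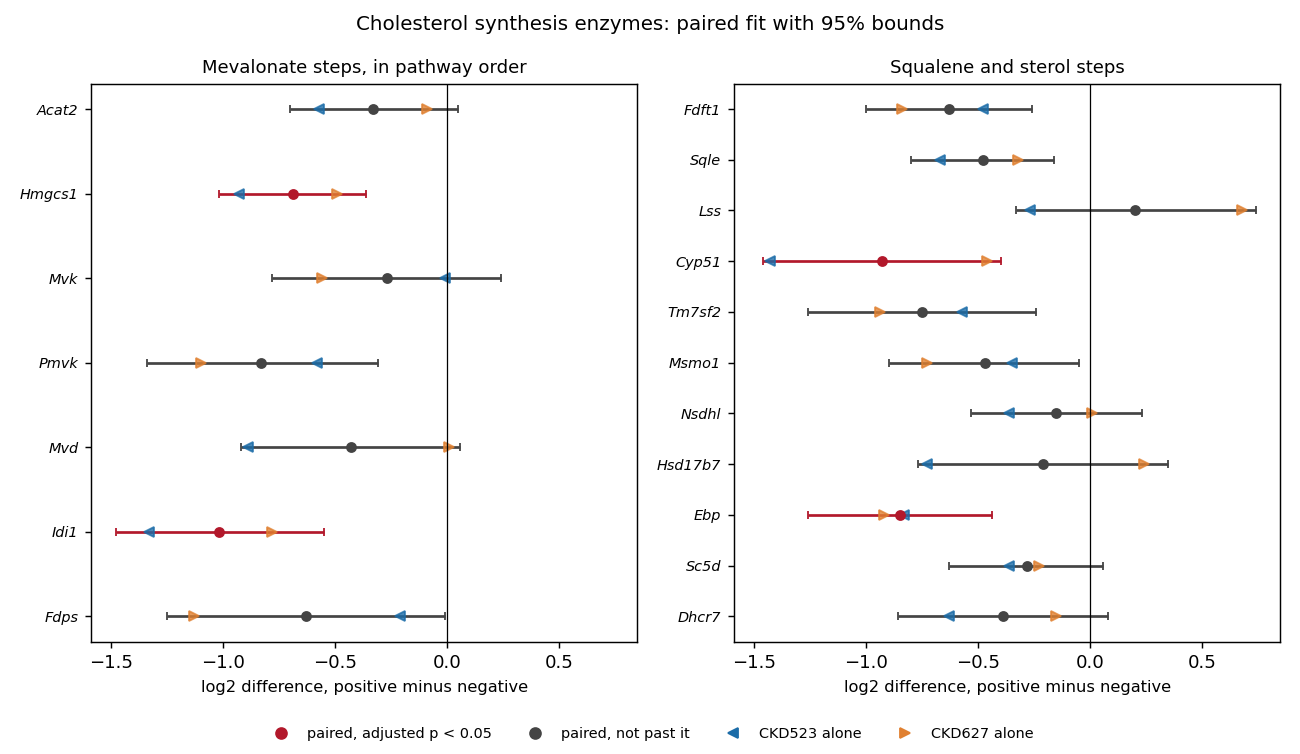
Log2 difference, Tomato-positive minus Tomato-negative, of synthesis enzymes (x axis), with circles and 95% bounds from the paired fit and triangles from each prefix alone. All circles shown but that of Lss lie left of 0 (of the full list of 20, 18 do with library size alone as scaling), and 4 (red) pass the threshold. Of the full list of 20, 15 were below 0 in CKD627 alone.

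In the paired fit, medians of the other branches lay nearer 0. None of 12 genes of SREBP control was called by the unpaired or paired edgeR fit (1 and 2 at an unadjusted p under 0.05), by DESeq2 or by limma-voom, and their paired median was 0.05. The paired edgeR fit called 7.62% of all genes in either direction. Insig2, the second sterol-sensing retention protein, was lower in all 4 pairs (-0.32 ± 0.13 (SE), paired edgeR adjusted p = 0.182). Nr1h3, the sterol sensor LXR alpha, was also lower in all 4 (-0.50 ± 0.17 (SE), adjusted p = 0.11, paired edgeR), passed as lower in CKD523 alone (-0.63, adjusted p = 0.0457) and was lower in CKD627 than in CKD523 (-1.25, adjusted p = 0.00141). Scap, the SREBP escort, was higher in all 4 (0.15 ± 0.12 (SE), paired edgeR adjusted p = 0.5). The 16 genes of cholesterol uptake, transport, storage and efflux had a median of 0.03. Of these, 1 rose, where the paired edgeR fit called 7.62% of all genes: Lrp8, a lipoprotein receptor. Lrp8 went from 9.45, 6.94, 6.97 and 8.71 CPM to 22.9, 17.6, 13.0 and 15.1 CPM without overlap (1.08 ± 0.21 (SE), adjusted p = 0.021, paired edgeR; 0.0663 unpaired). Abca1, which exports cholesterol, was higher in all 4 pairs (0.68 ± 0.20 (SE)) without passing in the paired edgeR fit (adjusted p = 0.0776), while DESeq2 called it higher with and without the pairing.

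Of 11 genes of the isoprenoid branch (median -0.25), Coq2, which attaches the side chain of ubiquinone, fell by 0.54 ± 0.13 (SE; adjusted p = 0.0402, paired edgeR; 0.0979 unpaired). It was the 1 gene of 11 called by the paired edgeR fit, which called 7.62% of all genes. Coq2 stood at 79.7, 82.7, 79.4 and 68.7 CPM in the negative and 59.2, 59.8, 48.4 and 46.6 CPM in the positive libraries, with no overlap. Of 15 fatty acid synthesis genes (median 0.05), Scd2, a stearoyl-CoA desaturase, rose by 0.72 ± 0.13 (SE; adjusted p = 0.0139, paired edgeR; 0.38 unpaired). Scd2 was the 1 gene of 15 called by that paired fit, beside the same 7.62% of all genes. Its levels went from 195, 279, 470 and 543 CPM to 323, 410, 857 and 914 CPM, higher in each pair but overlapping between groups because CKD627 was high in both. Fasn, the fatty acid synthase, was at 0.54 ± 0.19 (SE; adjusted p = 0.125, paired edgeR). Acacb, an acetyl-CoA carboxylase, and Me1, the cytosolic malic enzyme, were lower in all 4 pairs, at -0.98 and -0.49 (adjusted p = 0.0549 and 0.0985, paired edgeR), and DESeq2 with the pairing called both lower. The fatty acid median near 0 joined prefixes of opposite sign, -0.40 in CKD523 alone and 0.14 in CKD627 alone. In CKD523 alone 6 of 14 tested were called lower and 2 higher, where 15.7% of all genes were called. In CKD627 alone 0 of 15 were called, against 2.07%. The edgeR test of the difference between prefixes called 0 of 15 (7 at an unadjusted p under 0.05).

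**Figure D3:**
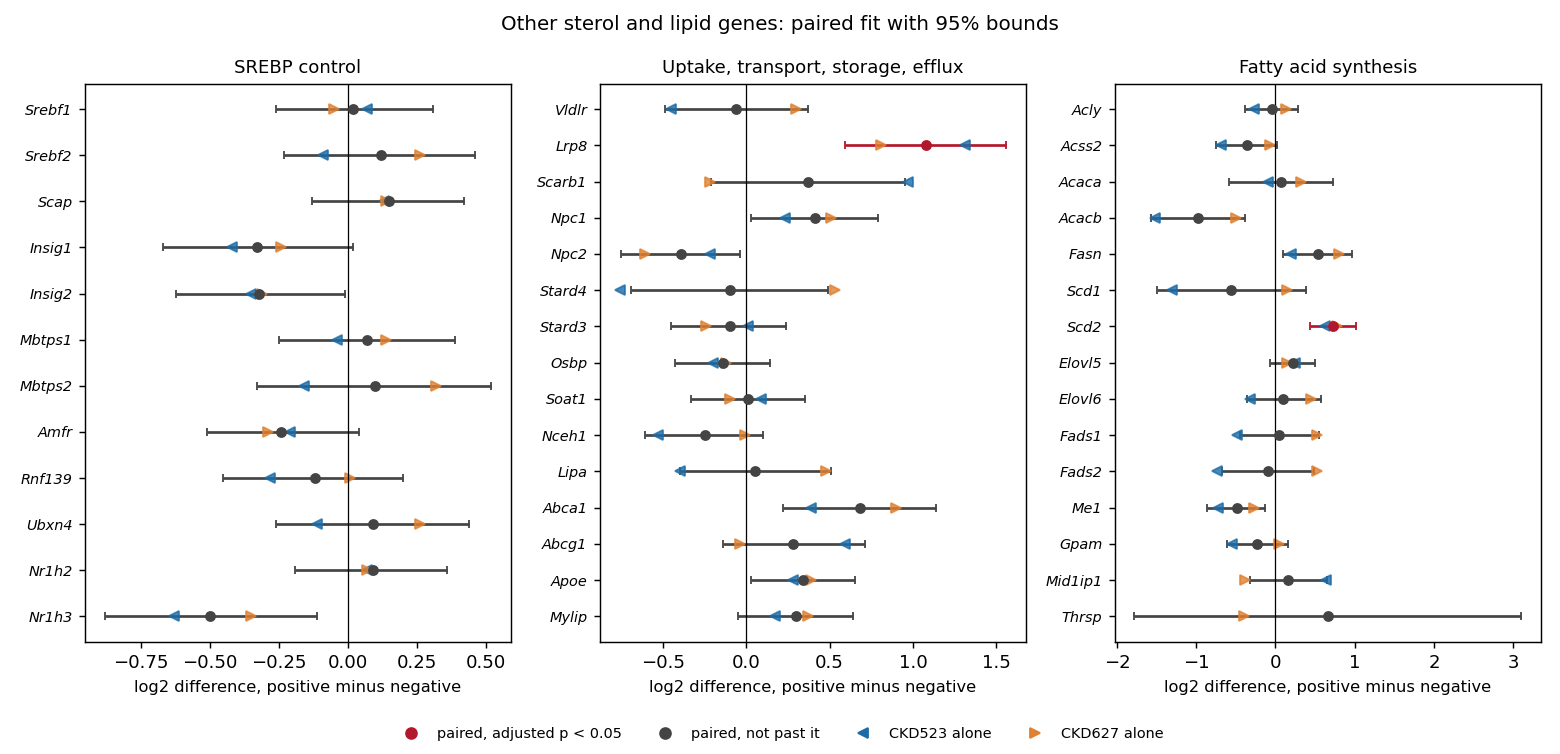
Log2 difference, Tomato-positive minus Tomato-negative, of genes of SREBP control, cholesterol handling and fatty acid synthesis (x axes differ between panels), with circles and 95% bounds from the paired fit and triangles from each prefix alone. Lrp8 and Scd2 (red) pass the threshold, and Srebf1 and Srebf2 lie near 0.

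The members' Tomato differences were also taken within each prefix. In CKD523 alone (2 libraries against 2) Hmgcs1, Idi1 and Sqle were called, at -0.93, -1.33 and -0.67 (edgeR adjusted p = 0.00144, 0.00543 and 0.00989), where 15.7% of all genes were called. In CKD627 alone 0 of 8 were called (4 at an unadjusted p under 0.05), with -0.49, -0.78 and -0.32 for these genes, where 2.07% of all genes were called. Over the 20 synthesis enzymes the median was -0.58 in CKD523, with 9 called, and -0.39 in CKD627, with 0 called (9 at an unadjusted p under 0.05). Below 0 were 19 of the 20 in CKD523 and 15 in CKD627. The test of the difference between prefixes itself called 0 of 8 members and 0.014% of all genes. CKD627 minus CKD523, the members' Tomato difference differed by between -0.88 (Fdps) and 0.99 (Lss), and for Hmgcs1 by 0.47 with 95% bounds of -0.03 and 0.96. The lowest p among members was that of Lss, whose difference was -0.27 in CKD523 and 0.68 in CKD627 (difference 0.99 ± 0.36 (SE), unadjusted p = 0.0179, edgeR adjusted p = 0.298).

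Levels also differed by prefix whatever the Tomato group. With the counts of each identifier summed, 2 against 2, Hmgcs1, Insig1 and Sqle were lower in CKD627 than in CKD523, and these were 3 of 8 members where 21.8% of 15398 genes differed and 12.6% were lower. Hmgcs1 had a mean of 302 CPM over the 4 CKD523 and 179 CPM over the 4 CKD627 libraries (-0.80 ± 0.13 (SE), edgeR adjusted p = 0.00167). Insig1 had means of 36.6 and 19.3 CPM (-0.97 ± 0.20 (SE), adjusted p = 0.00583), and Sqle of 86.3 and 58.3 CPM (-0.61 ± 0.14 (SE), adjusted p = 0.00922). Without CKD523_3 the edgeR adjusted p was 0.0732 for Insig1 and 0.149 for Sqle, and that of Hmgcs1 stayed under the threshold in each of the 6 alternatives. Srebf1 went the other way at 0.23 ± 0.14 (SE; adjusted p = 0.298), and Fdps was at 0.31 ± 0.25 (SE; adjusted p = 0.437). Idi1 (-0.11 ± 0.22), Lss (-0.19 ± 0.20) and Srebf2 (-0.07 ± 0.16, each ± SE) did not pass either (edgeR adjusted p = 0.795, 0.578 and 0.814). With library size alone as scaling the median of all genes moved up by 0.19, Sqle had an edgeR adjusted p of 0.0509, Srebf1 passed at 0.42 (adjusted p = 0.0497), and Idi1, Lss and Srebf2 changed sign.

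Across the pathway 6 of 20 enzymes were lower in CKD627 and 0 higher, where 12.6% of 15398 genes were lower and 21.8% differed. The 6 included Acat2 (-0.95), Mvd (-0.90) and Nsdhl (-0.75) beside Hmgcs1 and Sqle. All 12 proximal tubule markers were lower in CKD627 too. Their summed CPM was 20784 and 23701 in the CKD523 negative libraries, 5548 and 6567 in the CKD627 negative ones, 9896 and 9735 in the CKD523 positive ones and 3132 and 5212 in the CKD627 positive ones. Endothelial markers were higher in CKD627 for 7 of 7 and principal cell markers for 6 of 7. Loop of Henle markers were split, with 5 higher and 1 lower, as were macrophage (2 and 2) and injured tubule markers (1 and 3). Some intercalated cell (3 of 6), fibroblast (3 of 7), distal tubule (2 of 5) and podocyte markers (1 of 4) were higher, with 0 lower. The part of these cell types in the level of the members was not tested.

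**Figure D4:**
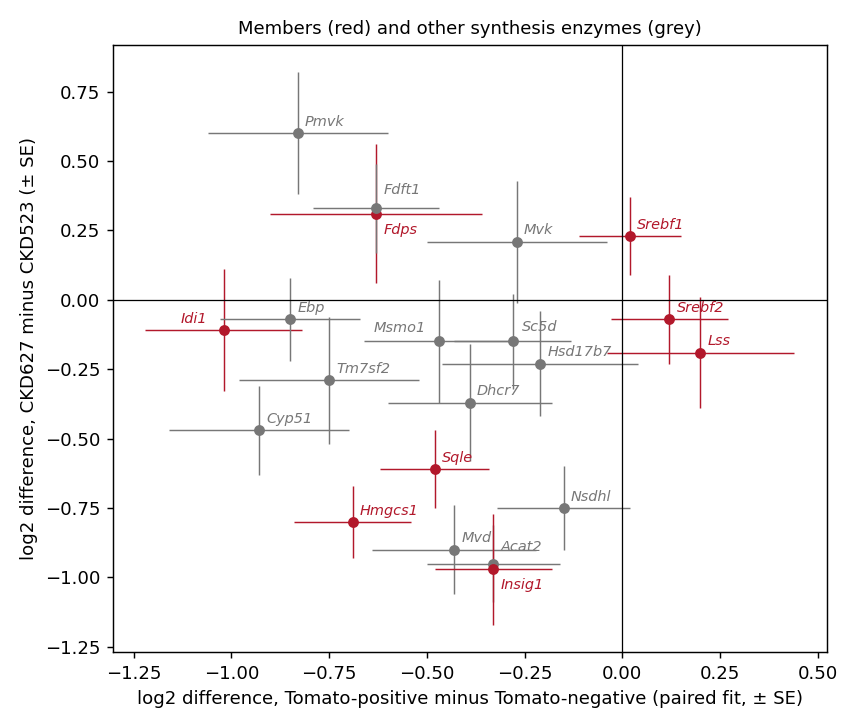
For the 8 members (red) and other synthesis enzymes (grey), the Tomato difference of the paired fit (x axis, log2) is plotted against CKD627 minus CKD523 (y axis, log2), each with its SE. Idi1 lies far left near 0 on the y axis, Hmgcs1 and Sqle are low on both, and Insig1 is low mainly on the y axis.

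Across the 8 libraries the members fell into more than 1 pattern, given here as a description since libraries share identifiers, depth and composition. Of 28 pairs of members, Hmgcs1 and Sqle were the closest (Pearson r = 0.99 on log2 CPM, n = 8), and both followed Insig1 (r = 0.88 and 0.90). Idi1 was between the groups, at 0.67 with Hmgcs1, 0.67 with Sqle and 0.61 with Fdps. Lss followed Srebf2 (0.73) and ran against Fdps (-0.63). Hmgcs1 was at 0.09 with Srebf2 and -0.53 with Srebf1.

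The mean of the 8 standardized profiles was compared with 11315 genes of at least 5 CPM. Sqle (r = 0.85), Hmgcs1 (0.84), Insig1 (0.79) and Idi1 (0.72) were most like it among the members, and Srebf1 least (-0.04), where each r is raised because the mean holds the member itself. The 5 other genes of highest r were Elovl7 (0.95), Map3k7cl (0.94), and Erc2, Acad9 and Arfip2 (0.93 each, n = 8 libraries). Of these, Arfip2 was at 0.73 and rank 176 when only library size was used for scaling. None of the 5 passed in the paired edgeR fit, where Elovl7 differed by -0.32 (adjusted p = 0.157) and Map3k7cl by -0.95 (adjusted p = 0.0768).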

How the data were processed

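Reads were aligned with subread, per the file headers, to mm10, and edgeR 3.32.1 and limma 3.46.0 were used, per the submitters' processing notes. The authors deposited raw counts per gene symbol. Sources used here do not give the counter, annotation, strand setting or handling of reads with several matches.

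Members and lists were chosen with earlier results of these data known. Genes past filterByExpr (minimum count 10, total 15) were tested with edgeR 4.0.16 in R 4.3.3 (TMM, quasi-likelihood, 2-sided, Benjamini-Hochberg over all genes, threshold 0.05). The main fit is unpaired. Libraries of an identifier deviated together (r = 0.464, 0.321, 0.33 and 0.465, limit 0.1), so a paired fit, with the identifier as block, stands beside it. These deviations were taken from the Tomato group means only, so they include the difference between prefixes. The r values therefore cannot tell libraries that share an identifier from libraries that share only a prefix. Prefixes were compared on counts summed per identifier. Named by rule were the members, up to 6 genes per list past the threshold and the 5 most like profiles, and other list genes were named after their values were seen. SE and 95% bounds come from the fits. Counts of libraries of 1 group differed beyond sampling noise (chi-square over degrees of freedom 15.5 to 191). Scripts were tested on simulated counts. Alternatives were DESeq2 1.42.0, limma-voom (limma 3.58.1), other scalings and filters, each prefix alone, and leaving out libraries or pairs. GENCODE M21 gave positions and exon lengths. Some genes of the lists are not reported here.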

Additional observations from a re-analysis of the deposited data

Results flagged for a closer look

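Srebf1 in the Tomato-positive library CKD523_2 stood at 85.2 CPM, far below the other 3 positive libraries (112, 114 and 116 CPM). The gap was 0.855 of the range of the group. It was the 1 case found among 24 groups of 4 values examined, where chance alone marks about 1 in 20 groups. The negative library of the same identifier was the lowest of its group too, at 88.2 CPM.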

How the results depend on the processing

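Among the alternative values of the members' log2 differences, 230 kept direction and side of the threshold, 12 newly passed it, 9 no longer did and 21 changed sign. Signs changed only for Lss, Srebf2 and Srebf1 and, between prefixes, for Idi1, Lss and Srebf2, and none of these differences had passed. Causes of these changes were not tested. With 4 libraries per group, differences near 0 have no settled sign.

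The unpaired edgeR fit called 85 genes. The count was 1089 with the identifier as replicate block (paired fit), 1527 with prefix as a covariate, 2231 in CKD523 alone, 303 in CKD627 alone, 45 without a filter, 1008 with DESeq2, and 6 to 26 when 1 library was left out. Members called were 0 unpaired, 2 with the block (Hmgcs1 and Idi1, the only members whose call it changed), 3 with prefix as a covariate, 3 in CKD523 alone and 1 with DESeq2. The paired fit's 1089 became 2026 with DESeq2 and 203 to 1319 without 1 pair, its 2 members became 0 to 3 without 1 pair, and its 4 synthesis enzymes became 8 with DESeq2 and 0 to 4 without 1 pair. The counts of genes and of enzymes were lowest without CKD523_3. The difference between prefixes, called for 2 genes, was called for 20 with the block and 0 to 1495 without 1 library, the highest without the negative library CKD627_2. Between prefixes 3 members were called, and 1 to 3 without 1 identifier, the lowest without CKD523_3.

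In the unpaired fit, Lss (0.18) was -0.27 and Srebf2 (0.10) was -0.0898 in CKD523 alone, and Srebf1 (0.03) was -0.0464 in CKD627 alone and -0.0142 with upper-quartile factors. Without 1 library Srebf2 ranged from -0.0311 to 0.19 and Srebf1 from -0.0562 to 0.11. In the paired fit, without 1 pair, Lss ranged from -0.00348 to 0.43, Srebf2 from -0.0393 to 0.17 and Srebf1 from -0.0509 to 0.0517. For CKD627 minus CKD523, library size alone gave 0.0822 for Idi1, 0.00461 for Lss and 0.12 for Srebf2, and a fit of 8 libraries gave 0.0223 for Idi1. Without 1 identifier Idi1 ranged from -0.31 to 0.10, Lss from -0.42 to 0.0572 and Srebf2 from -0.23 to 0.12.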
